A study of Mus musculus with 12 samples.

Results

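The 48 genes described here build and run the DNA replication machinery of S phase. They were chosen by gene symbol for that role, with earlier results of these data known. All 48 were found among the 36292 human gene symbols of the deposited table, and all 48 were among the 15836 genes that passed the filter on low counts and were tested. The RNA came from subcutaneous xenografts of Hep3B, a single human hepatocellular carcinoma cell line, in female BALB/c nu/nu mice, a strain without a thymus, injected at about 8 weeks of age. Dosing by oral gavage once daily began when tumors averaged about 500 mm3, and tissue was collected 8 h after dose 4. The combination group received 300 mg/kg H3B-6527, an FGFR4 inhibitor, together with 10 mg/kg lenvatinib, an inhibitor of VEGF, FGF and other receptor tyrosine kinases. The H3B-6527 group received 300 mg/kg H3B-6527 alone, the lenvatinib group 10 mg/kg lenvatinib alone, and the vehicle group neither agent. Each group held 3 mice with 1 tumor library each, and all 4 groups share the cell line, the host strain and the gavage, so no result here extends beyond this 1 line.

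In each cell cycle, origins of replication are licensed in G1 when ORC, CDC6 and CDT1 load the MCM helicase onto DNA, and the loaded helicase is switched on in S phase by CDC45, the GINS complex and MCM10. Polymerases, the PCNA clamp and its loader then copy the DNA, while ribonucleotide reductase and thymidylate enzymes supply the nucleotides. Many of these genes are transcribed by E2F factors late in G1, and their mRNA levels are commonly read as a sign of how many cells in a tissue are cycling.

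The libraries held 23.8 to 40.9 M (mega) counts, and the shallowest was H3B-6527 replicate 3. Group means were 34.9 ± 5.31 M with the combination, 34.4 ± 9.18 M with H3B-6527, 34.7 ± 3.06 M with lenvatinib and 35.7 ± 1.24 M with vehicle (SD, n = 3 each). All 10 hepatocellular markers were present, and their summed level was 128000 to 143000 CPM with the combination, 110000 to 156000 CPM with H3B-6527, 72000 to 90900 CPM with lenvatinib and 72100 to 78400 CPM with vehicle, where CPM is a count per M of the effective library size, the total scaled by edgeR's TMM factor. ALB made up most of the difference, with means of 76800 CPM with the combination, 78900 CPM with H3B-6527, 40600 CPM with lenvatinib and 35400 CPM with vehicle. The means of AFP, APOA1, TTR, GPC3, HNF4A and KLB were also higher in both groups given H3B-6527 than with vehicle. Those of FGF19 and FGFR4 were lower, and that of APOB stayed within 25000 to 26200 CPM, so the sum does not measure tumor content. Among host cell markers read under human symbols, endothelial sums lay at 2.94 to 4.34 CPM with the combination, 2.52 to 3.94 CPM with H3B-6527, 1.82 to 3.12 CPM with lenvatinib and 2.39 to 3.24 CPM with vehicle, and all 4 T and B cell markers stayed under 1 CPM. Nearly all of the endothelial sum was ENG, while CDH5, KDR and EMCN held 3, 5 and 13 counts over all 12 libraries. The fibroblast sum was lower in both groups that received H3B-6527, at 31.6 to 36.3 CPM with the combination and 26.9 to 36.3 CPM with H3B-6527, against 48.5 to 54.0 CPM with lenvatinib and 50.2 to 55.9 CPM with vehicle. In that fibroblast list the defining markers DCN and LUM held 11 and 18 counts over all 12 libraries, so almost none of the sum came from them. Most of it was PDGFRB, with means of 31.1 CPM with the combination, 27.2 CPM with H3B-6527, 44.9 CPM with lenvatinib and 43.8 CPM with vehicle. Macrophage sums were 158 to 192 CPM with the combination, 147 to 204 CPM with H3B-6527, 175 to 183 CPM with lenvatinib and 195 to 212 CPM with vehicle. Within that list LYZ averaged 9.47 CPM with the combination, 9.5 CPM with H3B-6527, 76.2 CPM with lenvatinib and 107 CPM with vehicle, while CD68 averaged 158 CPM with the combination, 156 CPM with H3B-6527, 101 CPM with lenvatinib and 93 CPM with vehicle. The skeletal muscle sum was higher in tumors with H3B-6527, at 5.74 to 11.6 CPM with the combination and 3.64 to 14.7 CPM with H3B-6527, against 1.59 to 2.59 CPM with lenvatinib and 2.18 to 2.73 CPM with vehicle, and MYH4 made up most of the difference. CKM went the other way, with means of 0.798 CPM with the combination, 0.729 CPM with H3B-6527, 1.11 CPM with lenvatinib and 1.59 CPM with vehicle. For MYH1 and ACTA1 the group means with and without H3B-6527 overlapped. The part of other cells in the results below was not tested. In the groups given H3B-6527, replicate 3 of each stood apart for most replication genes, and H3B-6527 replicate 1 stood apart at the low end, so counts that rest on them are given with and without them.

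Against vehicle, the combination lowered 37 of the 48 replication genes and raised none, by edgeR's quasi-likelihood test with Benjamini-Hochberg adjustment at 0.05. In the same comparison 25.3% of all 15836 genes tested were lower and 24.8% higher. The median log2 fold change of the 48 genes was -0.72, a level 1.65-fold lower, while the median over all genes was 0.01. H3B-6527 alone lowered 21 of the 48 and raised none, where 24.3% of all genes were lower and 25.2% higher, and the median of the 48 was -0.48 beside 0.01 over all genes. These comparisons share the vehicle tumors. All combination tumors lay below all vehicle tumors in 41 of the 48 genes, where this held for 32.8% of all genes, and all H3B-6527 tumors did so in 23, where it held for 27.9%. Lenvatinib alone changed 0 of the 48 by the same test, as it changed 0% of all genes, and 0 of the 48 had an unadjusted p under 0.05, with a median of -0.08 for the 48 genes and 0.01 for all. In bulk tumor RNA, fewer cells in S phase and less of each mRNA per cell cannot be told apart, and this holds for every value below. The H3B-6527 result moved with single tumors. Without H3B-6527 replicate 3, 38 genes were lower (26.2% of all genes) and the median was -0.79, while without H3B-6527 replicate 1, 15 were lower (21% of all genes), PRIM1 was higher and the median was -0.25. The count was 11 without H3B-6527 replicate 2 (22.3% of all genes), 12 without vehicle replicate 1 (19.6%) and 9 without vehicle replicate 3 (19.3%), so that in these 3 fits the share of the 48 genes was near that of all genes. For the combination the count was 24 without combination replicate 1 (20.6% of all genes), with a median of -0.60, and 39 without combination replicate 3 (23.4%), with a median of -0.89.

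**Figure D1:**
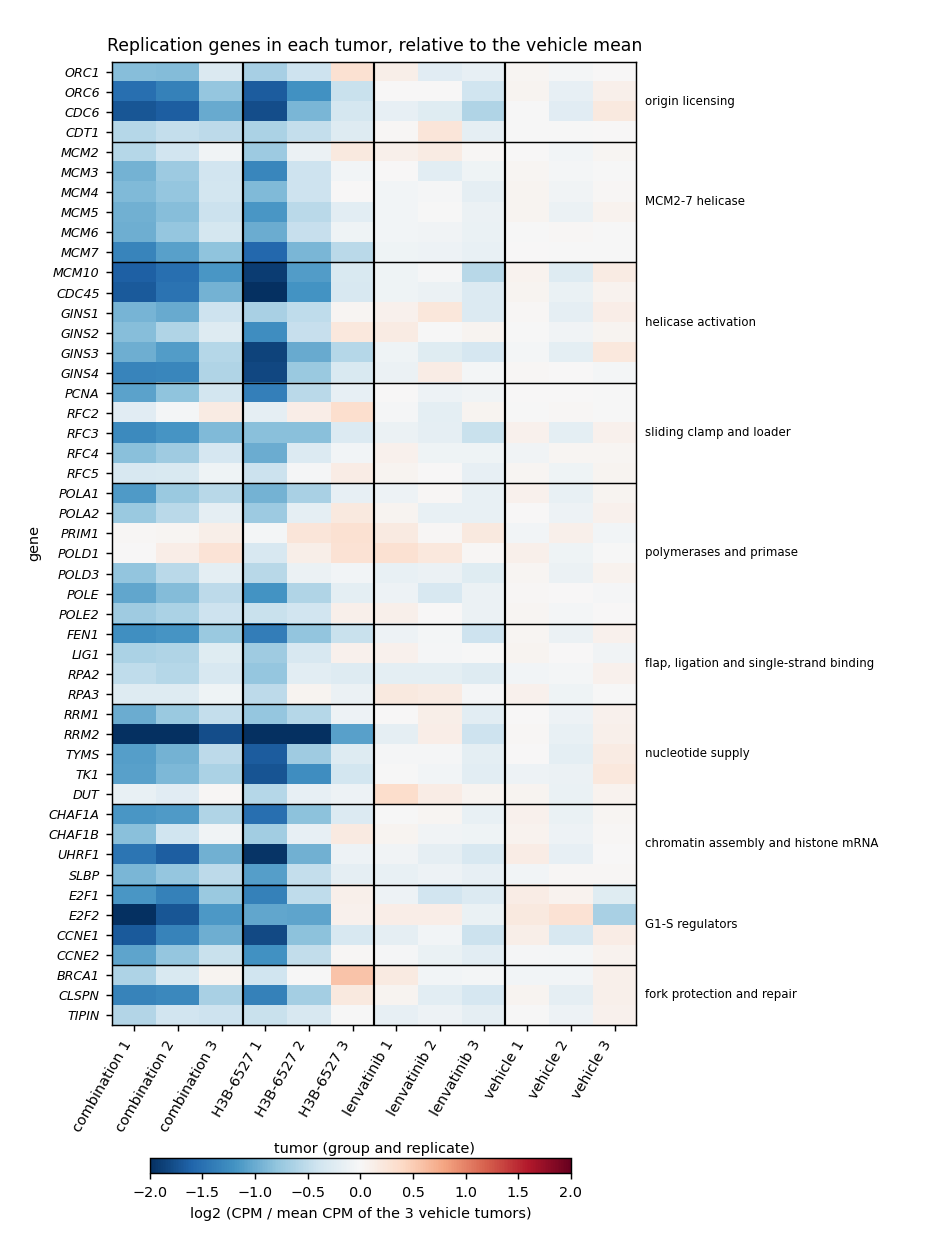
Level of each of the 48 replication genes (rows, grouped by role) in each of the 12 tumors (columns), as log2 of CPM over the mean CPM of the 3 vehicle tumors, with blue for lower and red for higher. The combination and H3B-6527 columns are mostly blue and palest in replicate 3 of each group, the lenvatinib columns are near white, and a few rows such as RFC2, PRIM1 and POLD1 stay near white throughout.

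Genes of origin licensing fell in both groups that received H3B-6527. The combination lowered all 4 of them, where 25.3% of all genes were lower, and H3B-6527 alone lowered 3, where 24.3% were. The median log2 fold changes were -0.91 and -0.68. These shares of all genes stand beside every class count below, and each class holds few genes. CDC6, the ATPase that recruits the helicase to ORC, had 24.9, 26 and 40.3 CPM in combination tumors, 23.8, 43 and 63.4 CPM in H3B-6527 tumors, 72.8, 68.7 and 53.2 CPM in lenvatinib tumors and 81.1, 69.1 and 93.2 CPM in vehicle tumors. All 6 tumors that received H3B-6527 lay below all 3 vehicle tumors, but H3B-6527 replicate 3 lay inside the lenvatinib range. The log2 fold change of CDC6 against vehicle was -1.41 ± 0.30 (SE, adjusted p = 0.00221) with the combination and -0.91 ± 0.30 (adjusted p = 0.0239) with H3B-6527. CDT1, the loading factor that is destroyed once S phase begins, stood at 23.1, 24.6 and 23.9 CPM with the combination, 22.0, 24.7 and 28.7 CPM with H3B-6527, 34.8, 40.4 and 30.4 CPM with lenvatinib and 34.0, 34.2 and 34.6 CPM with vehicle. Its 3 combination tumors were close to each other, and no tumor with H3B-6527 reached any tumor without it. The change of CDT1 was smaller than that of CDC6, at -0.52 ± 0.11 (adjusted p = 0.00191) with the combination and -0.45 ± 0.11 (adjusted p = 0.00508) with H3B-6527. ORC6, a subunit of the origin recognition complex, had 9.99, 11.1 and 16.6 CPM with the combination, 9, 12.3 and 20.9 CPM with H3B-6527, 28.5, 28.6 and 21.5 CPM with lenvatinib and 29.5, 25.3 and 30.6 CPM with vehicle. Its groups with and without H3B-6527 did not overlap, though H3B-6527 replicate 3 and lenvatinib replicate 3 came close. ORC6 fell by 1.18 ± 0.27 on the log2 scale with the combination (adjusted p = 0.00359) and by 1.03 ± 0.27 with H3B-6527 (adjusted p = 0.00779). ORC1, the largest ORC subunit, passed the test with the combination, at -0.64 ± 0.23 (adjusted p = 0.0338), and had -0.20 ± 0.22 (adjusted p = 0.484) with H3B-6527.

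The MCM2-7 helicase is a ring of 6 different subunits, and its genes did not move to the same extent. With the combination 5 of the 6 were lower, with a median log2 fold change of -0.67. With H3B-6527 2 were lower, MCM5 and MCM7, 33.3% of the 6 and near the 24.3% of all genes, with a median of -0.49. MCM7 had 112, 132 and 161 CPM in combination tumors, 94.5, 149 and 193 CPM in H3B-6527 tumors, 263, 262 and 253 CPM in lenvatinib tumors and 282, 280 and 279 CPM in vehicle tumors. The tumors without H3B-6527 were tightly grouped and all above those with it, while the H3B-6527 tumors were spread widely. MCM7 fell by 1.05 ± 0.20 on the log2 scale with the combination (adjusted p = 0.00114) and by 0.95 ± 0.20 with H3B-6527 (adjusted p = 0.00232). MCM5 had 64.7, 69.7 and 93.3 CPM with the combination, 55.8, 86.2 and 108 CPM with H3B-6527, 121, 124 and 115 CPM with lenvatinib and 130, 115 and 131 CPM with vehicle. Again no tumor with H3B-6527 reached one without it, and replicate 3 was the highest of each group that received it. The change of MCM5 was -0.73 ± 0.20 (adjusted p = 0.00919) with the combination and -0.60 ± 0.20 (adjusted p = 0.0253) with H3B-6527. MCM2, at the other end of the class, had 119, 136 and 169 CPM with the combination, 107, 163 and 202 CPM with H3B-6527, 191, 199 and 180 CPM with lenvatinib and 178, 171 and 183 CPM with vehicle. All 3 combination tumors lay below the vehicle tumors, replicate 3 only just, while H3B-6527 replicate 3 was above every vehicle tumor. MCM2 did not pass the test, at -0.32 ± 0.19 (adjusted p = 0.166) with the combination and -0.17 ± 0.19 (adjusted p = 0.462) with H3B-6527. Between these lay MCM3, MCM4 and MCM6, which passed in the combination at -0.67 (adjusted p = 0.0352), -0.66 (adjusted p = 0.0107) and -0.68 (adjusted p = 0.0121).

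Factors that switch the loaded helicase on had lower medians than the helicase itself. Of these 6 genes the combination lowered 5, with a median log2 fold change of -0.94, and H3B-6527 lowered 4, with a median of -0.92. The shares of all genes lowered were 25.3% and 24.3%. MCM10, which joins the active helicase at the fork, had 10.4, 11.4 and 14.4 CPM in combination tumors, 8.72, 14.9 and 26.1 CPM in H3B-6527 tumors, 30.6, 32.0 and 22.0 CPM in lenvatinib tumors and 33.8, 27.0 and 36.3 CPM in vehicle tumors. The combination tumors stayed well below all others except H3B-6527 replicates 1 and 2, and H3B-6527 replicate 3 reached almost to the lowest vehicle tumor. MCM10 fell by 1.42 ± 0.31 on the log2 scale with the combination (adjusted p = 0.00264) and by 0.98 ± 0.31 with H3B-6527 (adjusted p = 0.0196). GINS3, a subunit of the GINS complex that holds CDC45 to the helicase, had low levels throughout, with 2.12, 1.93 and 2.82 CPM in the combination, 1.16, 2.09 and 2.81 CPM with H3B-6527, 3.94, 3.56 and 3.31 CPM with lenvatinib and 4.10, 3.64 and 4.83 CPM with vehicle. Here the lowest tumor was H3B-6527 replicate 1, and the 6 tumors with H3B-6527 did not overlap the 6 without it. The change of GINS3 was -0.86 ± 0.26 (adjusted p = 0.0135) in the combination and -1.08 ± 0.26 (adjusted p = 0.00422) with H3B-6527. CDC45 and GINS4 were also lower in both groups, with -1.33 and -1.02 in the combination and -1.05 and -0.85 with H3B-6527. GINS1 was lower in the combination at -0.76 (adjusted p = 0.00771) and had -0.36 (adjusted p = 0.16) with H3B-6527, and GINS2 passed in neither, with -0.54 in the combination and -0.40 with H3B-6527.

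The sliding clamp and its loader were uneven. With the combination 3 of these 5 genes were lower, with a median of -0.61, and with H3B-6527 only RFC3, or 20%, below the 24.3% of all genes, with a median of -0.39. PCNA, the clamp that holds polymerases on DNA, had 44.5, 53.4 and 71.9 CPM in combination tumors, 36.1, 64.3 and 83.0 CPM in H3B-6527 tumors, 93.9, 86.8 and 88.2 CPM in lenvatinib tumors and 93.3, 93.0 and 92.7 CPM in vehicle tumors. The vehicle tumors were nearly identical and every tumor with H3B-6527 was below them, but the H3B-6527 tumors were spread widely. PCNA fell by 0.72 ± 0.24 with the combination (adjusted p = 0.0273), while its -0.61 ± 0.24 with H3B-6527 had an adjusted p of 0.0537. RFC3, a small subunit of the RFC clamp loader, had 11.8, 12.5 and 15.4 CPM with the combination, 15.9, 15.9 and 23.4 CPM with H3B-6527, 26.3, 25.2 and 20.9 CPM with lenvatinib and 30.1, 24.9 and 30.2 CPM with vehicle. RFC3 was 1 of 2 genes among the 48 whose combination tumors all lay below all H3B-6527 tumors, and lenvatinib replicate 3 lay below H3B-6527 replicate 3. Its log2 fold change was -1.10 ± 0.16 (adjusted p = 0.000129) with the combination and -0.63 ± 0.16 (adjusted p = 0.00539) with H3B-6527. The other small loader subunits differed from RFC3: RFC4 had -0.61 (adjusted p = 0.0209) with the combination, RFC5 had -0.24 (adjusted p = 0.143) and RFC2 had -0.03 (adjusted p = 0.879).

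Polymerase and primase genes changed unevenly. The combination lowered 4 of 7, with a median of -0.49, and H3B-6527 lowered POLA1 and POLE, 28.6% of the 7 and near the 24.3% of all genes, with a median of -0.23. POLA1, the catalytic subunit of the polymerase that starts each fragment, had 36.3, 47.8 and 54.5 CPM in combination tumors, 41.6, 51.2 and 71.7 CPM in H3B-6527 tumors, 74.7, 81.1 and 72.0 CPM in lenvatinib tumors and 84.9, 72.1 and 82.9 CPM in vehicle tumors. No combination tumor came near a vehicle tumor, while H3B-6527 replicate 3 was just short of the lowest lenvatinib and vehicle tumors. POLA1 fell by 0.79 ± 0.18 with the combination (adjusted p = 0.00329) and by 0.55 ± 0.18 with H3B-6527 (adjusted p = 0.0244). POLE2, an accessory subunit of the leading strand polymerase, had 9.17, 9.67 and 11.3 CPM with the combination, 11.1, 11.5 and 16.2 CPM with H3B-6527, 16.1, 15.1 and 13.9 CPM with lenvatinib and 15.4, 14.7 and 15.1 CPM with vehicle. The combination tumors were below the vehicle tumors, and H3B-6527 replicate 3 was above them. POLE2 had -0.58 ± 0.14 (adjusted p = 0.00359) with the combination and -0.23 ± 0.14 (adjusted p = 0.186) with H3B-6527. POLD1, the catalytic subunit of the lagging strand polymerase, and PRIM1, the catalytic subunit of primase, were the 2 genes with a positive value in the combination, at 0.15 ± 0.14 (adjusted p = 0.401) and 0.06 ± 0.10 (adjusted p = 0.624), neither past the threshold. Scaled by library totals alone, PRIM1 turned to -0.08 and POLD1 to 0. POLD1 had 36.9, 40.4 and 44.4 CPM with the combination, 29.3, 39.9 and 44.9 CPM with H3B-6527, 45.4, 42.6 and 37.3 CPM with lenvatinib and 39.3, 34.4 and 36.4 CPM with vehicle, so that all 4 groups overlapped.

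Genes that finish the copied strands were lower in the combination for 3 of 4, with a median of -0.47, and with H3B-6527 for 2 of 4, with a median of -0.34. Over all genes 25.3% were lower with the combination and 24.3% with H3B-6527. FEN1, the nuclease that trims flaps between lagging strand fragments, had 28.7, 29.5 and 39.8 CPM in combination tumors, 25.6, 38.5 and 49.3 CPM in H3B-6527 tumors, 62.2, 65.0 and 50.2 CPM in lenvatinib tumors and 68.6, 61.3 and 70.6 CPM in vehicle tumors. The tumors with H3B-6527 were all below those without, with a narrow gap between H3B-6527 replicate 3 and lenvatinib replicate 3. FEN1 fell by 1.03 ± 0.21 with the combination (adjusted p = 0.00144) and by 0.83 ± 0.20 with H3B-6527 (adjusted p = 0.00557). RPA2, a subunit of the complex that coats single-stranded DNA, had 13.4, 12.9 and 15.3 CPM with the combination, 11.2, 16.4 and 16 CPM with H3B-6527, 16.7, 16.7 and 16 CPM with lenvatinib and 18.4, 18.6 and 20.2 CPM with vehicle. All 9 treated tumors were below the vehicle tumors, those with lenvatinib alone included. The change of RPA2 was -0.46 ± 0.13 (adjusted p = 0.0101) with the combination, -0.40 ± 0.13 (adjusted p = 0.0225) with H3B-6527 and -0.21 ± 0.13 (adjusted p = 0.605) with lenvatinib, which did not pass. LIG1, the ligase of lagging strand fragments, had -0.48 (adjusted p = 0.0268) with the combination and -0.28 with H3B-6527, and RPA3 passed in neither.

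Nucleotide supply held the gene that fell most. The combination and H3B-6527 each lowered 4 of its 5 genes, beside 25.3% and 24.3% of all genes, with medians of -0.83 and -0.78. RRM2, the small subunit of ribonucleotide reductase, whose supply limits the enzyme in S phase, had 10.6, 9.6 and 12.7 CPM in combination tumors, 10.5, 10.3 and 20.4 CPM in H3B-6527 tumors, 38.5, 47.6 and 32.6 CPM in lenvatinib tumors and 44.4, 39.2 and 46.9 CPM in vehicle tumors. The groups with and without H3B-6527 were far apart, and even the highest H3B-6527 tumor was well below the lowest lenvatinib tumor. RRM2 was 3.95-fold lower with the combination, at -1.98 ± 0.24 (adjusted p = 5.19e-05), and 3.20-fold lower with H3B-6527, at -1.68 ± 0.24 (adjusted p = 0.000157). RRM1, the large subunit of the same enzyme, had 86.6, 103 and 125 CPM with the combination, 101, 116 and 161 CPM with H3B-6527, 174, 187 and 150 CPM with lenvatinib and 173, 162 and 184 CPM with vehicle. RRM1 moved less than RRM2, and H3B-6527 replicate 3 came within reach of the lowest vehicle tumor and above lenvatinib replicate 3. Its change was -0.72 ± 0.17 (adjusted p = 0.00341) with the combination and -0.46 ± 0.17 (adjusted p = 0.0377) with H3B-6527. TYMS, which makes thymidylate, and TK1, which salvages thymidine, were lower in both groups, at -0.83 and -0.86 with the combination and -0.78 and -1.03 with H3B-6527. DUT, which keeps uracil out of DNA by breaking down dUTP, passed in neither, with -0.11 in the combination and -0.26 with H3B-6527.

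In chromatin assembly and histone mRNA handling, 3 of 4 genes were lower with the combination and 2 with H3B-6527, with medians of -0.83 and -0.66. Of all genes 25.3% and 24.3% were lower. CHAF1A, the large subunit of the CAF-1 histone chaperone, had 51.0, 51.9 and 75.6 CPM in combination tumors, 40.3, 64.7 and 95 CPM in H3B-6527 tumors, 114, 118 and 103 CPM in lenvatinib tumors and 122, 104 and 117 CPM in vehicle tumors. The tumors with H3B-6527 did not reach those without, and replicate 3 was nearest in both groups. CHAF1A fell by 0.94 ± 0.25 with the combination (adjusted p = 0.00759) and by 0.78 ± 0.25 with H3B-6527 (adjusted p = 0.0202). SLBP, which binds the stem-loop at the end of histone mRNAs, had 32.2, 35.4 and 42.0 CPM with the combination, 28.3, 43.7 and 53.6 CPM with H3B-6527, 55.0, 56.6 and 54.0 CPM with lenvatinib and 58.5, 61.7 and 61.7 CPM with vehicle. H3B-6527 replicate 3 all but met the lenvatinib tumors, and all lenvatinib tumors were slightly below the vehicle tumors. SLBP had -0.73 ± 0.18 (adjusted p = 0.00433) with the combination and -0.54 ± 0.18 (adjusted p = 0.0229) with H3B-6527. UHRF1, which brings DNA methylation to newly copied strands, had -1.32 ± 0.35 (adjusted p = 0.00827) with the combination and -0.82 ± 0.35 (adjusted p = 0.068) with H3B-6527. The partner subunit CHAF1B passed in neither, with -0.40 in the combination and -0.19 with H3B-6527.

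The G1-S regulators, which act before replication starts, were all lower with the combination, with the largest median of the 10 role classes, -1.18. With H3B-6527 only CCNE1 passed, 25% of the class beside 24.3% of all genes, and the median was -0.55. CCNE1, cyclin E1, the CDK2 partner that drives entry into S phase, had 4.27, 5.42 and 6.93 CPM in combination tumors, 3.91, 7.72 and 11 CPM in H3B-6527 tumors, 12.1, 13.1 and 10.1 CPM in lenvatinib tumors and 14.9, 10.9 and 15.2 CPM in vehicle tumors. The combination tumors were below all lenvatinib and vehicle tumors, while H3B-6527 replicate 3 overlapped both. CCNE1 fell by 1.30 ± 0.30 with the combination (adjusted p = 0.00398) and by 0.88 ± 0.30 with H3B-6527 (adjusted p = 0.0294). CCNE2, the related cyclin E2, had 6.07, 7.32 and 9.19 CPM with the combination, 5.43, 8.97 and 12.8 CPM with H3B-6527, 12.4, 11.4 and 10.9 CPM with lenvatinib and 12.3, 12.2 and 13.2 CPM with vehicle. Within the combination and H3B-6527 groups its tumors ranked as for CCNE1, and H3B-6527 replicate 3 was above all lenvatinib tumors. CCNE2 had -0.74 ± 0.24 (adjusted p = 0.0214) in the combination and -0.49 ± 0.24 (adjusted p = 0.106) with H3B-6527. E2F1, a transcriptional activator of replication genes, had 3.54, 3.11 and 4.75 CPM with the combination, 3.11, 5.58 and 8.5 CPM with H3B-6527, 7.37, 6.13 and 6.59 CPM with lenvatinib and 8.82, 8.31 and 6.72 CPM with vehicle. The combination tumors lay below every lenvatinib and vehicle tumor, and the H3B-6527 tumors spanned the range from the lowest combination tumor almost to the highest vehicle tumor. E2F1 had -1.06 ± 0.28 (adjusted p = 0.00825) with the combination and -0.49 ± 0.28 (adjusted p = 0.162) with H3B-6527. E2F2, a second activator E2F, was near the limit of detection, with 29 counts in the 3 combination tumors together, 56 with H3B-6527, 99 with lenvatinib and 102 with vehicle. Its levels were 0.158, 0.276 and 0.406 CPM with the combination, 0.437, 0.434 and 0.963 CPM with H3B-6527, 0.986, 0.994 and 0.821 CPM with lenvatinib and 1.03, 1.10 and 0.578 CPM with vehicle. The combination tumors were the lowest of all, and 1 vehicle tumor lay within the H3B-6527 range. E2F2 fell by 1.65 ± 0.42 with the combination (adjusted p = 0.00547) and had -0.61 ± 0.39 (adjusted p = 0.205) with H3B-6527.

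Of the 3 fork protection and repair genes 2 were lower with the combination, where 25.3% of all genes were. The smallest adjusted p with H3B-6527 was 0.0921, for TIPIN. CLSPN, claspin, which links the fork to the checkpoint kinase CHK1, had 29.4, 30.1 and 47.1 CPM in combination tumors, 29.1, 46.1 and 84.6 CPM in H3B-6527 tumors, 76.4, 63.7 and 58.5 CPM in lenvatinib tumors and 76.7, 65.5 and 79.6 CPM in vehicle tumors. H3B-6527 replicate 3 was the highest of the 12 tumors for this gene, while H3B-6527 replicate 1 was the lowest. CLSPN had -1.05 ± 0.31 (adjusted p = 0.0145) with the combination and -0.48 ± 0.31 (adjusted p = 0.219) with H3B-6527. TIPIN, a partner of TIMELESS at the fork, had 8.70, 9.95 and 9.73 CPM with the combination, 9.54, 10.4 and 13.0 CPM with H3B-6527, 11.6, 12.1 and 11.5 CPM with lenvatinib and 13.0, 12.2 and 13.9 CPM with vehicle. The combination tumors and the lenvatinib tumors were all below the vehicle tumors. TIPIN had -0.46 ± 0.12 (adjusted p = 0.00575) with the combination, -0.25 ± 0.12 (adjusted p = 0.0921) with H3B-6527 and -0.15 ± 0.12 (adjusted p = 0.71) with lenvatinib. BRCA1, which protects stalled forks and repairs breaks, had 53.2, 65.8 and 84.6 CPM with the combination, 61.9, 81.1 and 121 CPM with H3B-6527, 92.0, 78.5 and 78.8 CPM with lenvatinib and 77.9, 78.6 and 87.4 CPM with vehicle. All 4 groups overlapped, and BRCA1 passed in no comparison, at -0.26 ± 0.21 (adjusted p = 0.34) with the combination and 0.11 ± 0.21 (adjusted p = 0.696) with H3B-6527.

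**Figure D2:**
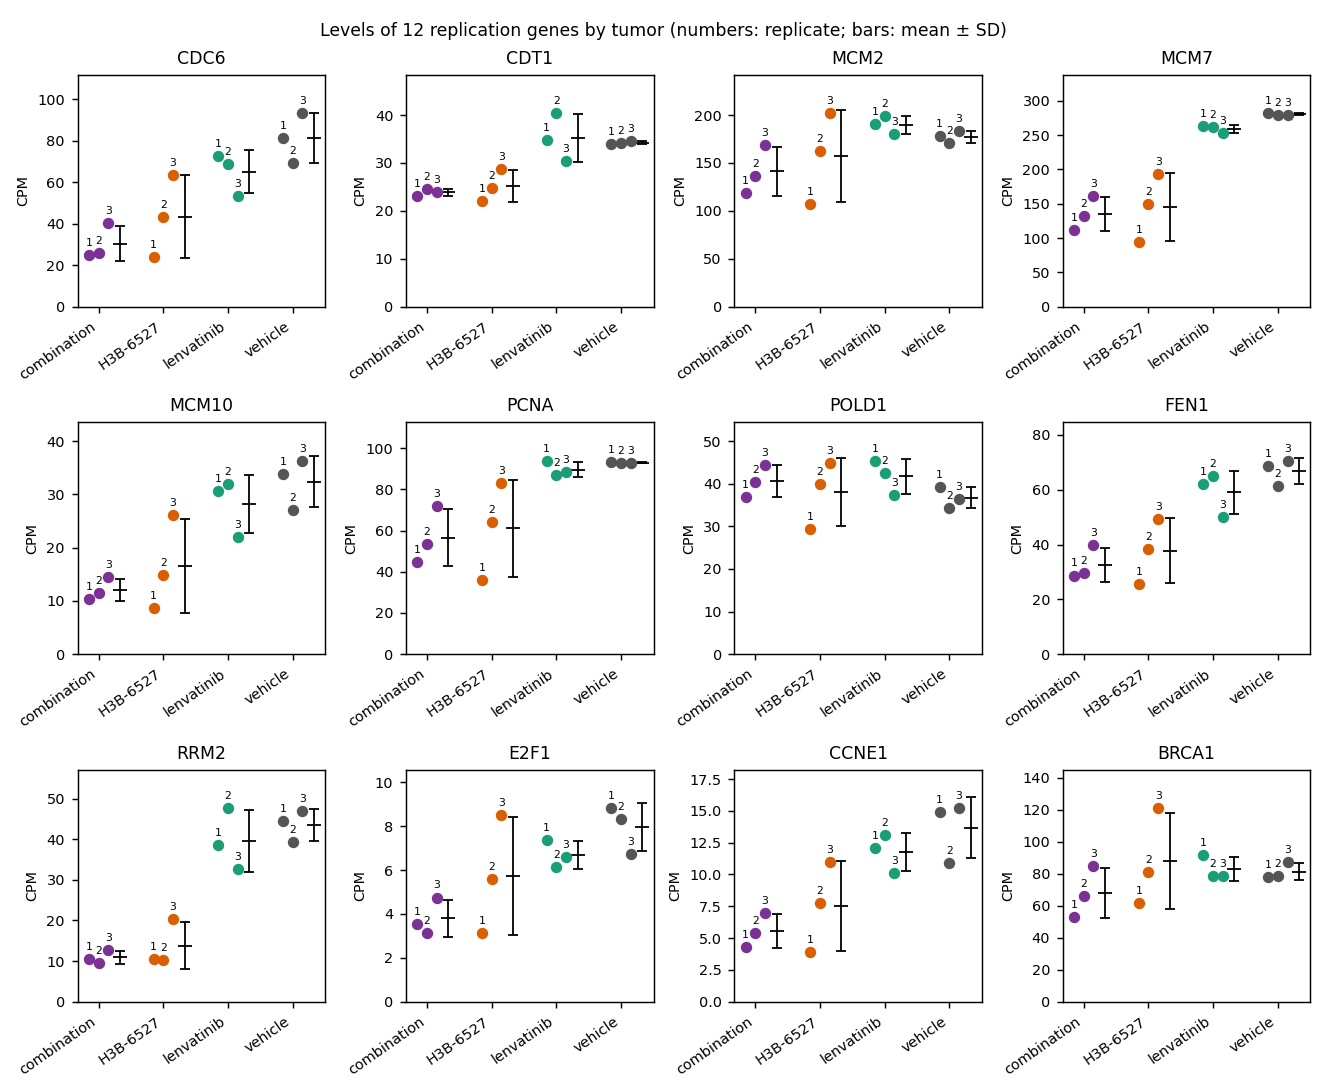
CPM of 12 replication genes (y axis from 0) in each tumor, by group, with points for tumors numbered by replicate and bars for mean ± SD of 3 tumors. In the combination and H3B-6527 groups replicate 3 is the highest point in the panels for CDC6, MCM7, MCM10, PCNA, FEN1, RRM2, CCNE1 and BRCA1, while POLD1 and BRCA1 overlap between all groups.

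Of the 37 genes lowered by the combination, 23 passed the test in all 13 alternative analyses, among them ORC6, CDC6, CDT1, MCM5, MCM7, MCM10, RFC3, POLA1, POLE2, FEN1, RPA2, RRM1, RRM2, CHAF1A, SLBP, E2F1, E2F2, CCNE1 and TIPIN. The other 14 lost the call in at least 1 alternative. Without combination replicate 1, ORC1 had an adjusted p of 0.115, MCM3 of 0.122, MCM4 of 0.0505, MCM6 of 0.0538, GINS4 of 0.0535, RFC4 of 0.0828, POLD3 of 0.0927, LIG1 of 0.1, TYMS of 0.081 and TK1 of 0.0626. ORC1 and MCM3 were lost in 6 of 13 alternatives each, those without combination replicate 1 or 2, without vehicle replicate 1, 2 or 3, and with no filter on low counts. With no filter, PCNA had 0.095, CLSPN 0.0643, ORC1 0.0973 and MCM3 0.112. PCNA also lost its call without combination replicate 1 (adjusted p = 0.103), without replicate 2 (0.077) and without vehicle replicate 1, 2 or 3 (0.059, 0.0523 and 0.0569). GINS3 lost it without combination replicate 2 (adjusted p = 0.0582) and without vehicle replicate 3 (0.0579). CCNE2 lost it without combination replicate 1 (adjusted p = 0.0887) or 2 (0.0633) and without vehicle replicate 3 (0.0614), and CLSPN without combination replicate 1 (0.0579) or 2 (0.0543). Of the 21 genes lowered by H3B-6527, 8 passed in all 13 alternatives, which were ORC6, CDT1, MCM7, GINS3, RFC3, FEN1, RRM2 and TK1. The share of all genes that passed in all 13 was not computed for either comparison. Without H3B-6527 replicate 2, CDC6 had an adjusted p of 0.0571, MCM10 of 0.0601, POLA1 of 0.0772, RRM1 of 0.114, CHAF1A of 0.0535 and CCNE1 of 0.0608. CDC45, GINS4, POLE and TYMS lost their call in the same fit, at 0.0621, 0.0584, 0.057 and 0.0594. Without vehicle replicate 3, CDC6 had 0.0742, MCM5 0.0681, MCM10 0.0591, POLA1 0.0684, RPA2 0.08, RRM1 0.109, SLBP 0.0599 and CCNE1 0.0845 as adjusted p. Without H3B-6527 replicate 1, CDC6 had 0.0676, POLA1 0.0866, RPA2 0.0681, RRM1 0.137 and CCNE1 0.0574, and without vehicle replicate 1, CDC6 had 0.0516, MCM5 0.0672, POLA1 0.0744, RRM1 0.0823, CHAF1A 0.0573 and CCNE1 0.0813. Without vehicle replicate 2, RRM1 had an adjusted p of 0.051 and SLBP of 0.0554. All of these kept a negative log2 fold change.

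Lenvatinib alone left the 48 genes close to vehicle. A negative log2 fold change was found for 36 of the 48 and not for 12, while 48.5% of all genes had one. The lowest was CDC6 at -0.32 and the highest reached 0.19, and 46 of 48 were within 0.25 of 0. The smallest adjusted p of any of the 48 was 0.605, for RPA2. By edgeR 0 of 48 had an unadjusted p under 0.05, where 10.7% of all genes did, and DESeq2 and limma's voom also called 0 of 48. DESeq2 called 1.71% of all genes in that comparison. The 95% intervals of all 48 genes excluded a fall of 1 on the log2 scale, and the lowest bound of any gene was -0.96. They use the spread of all 4 groups pooled. In 6 of 48 genes all lenvatinib tumors lay below all vehicle tumors, where 10.9% of all genes did so.

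**Figure D3:**
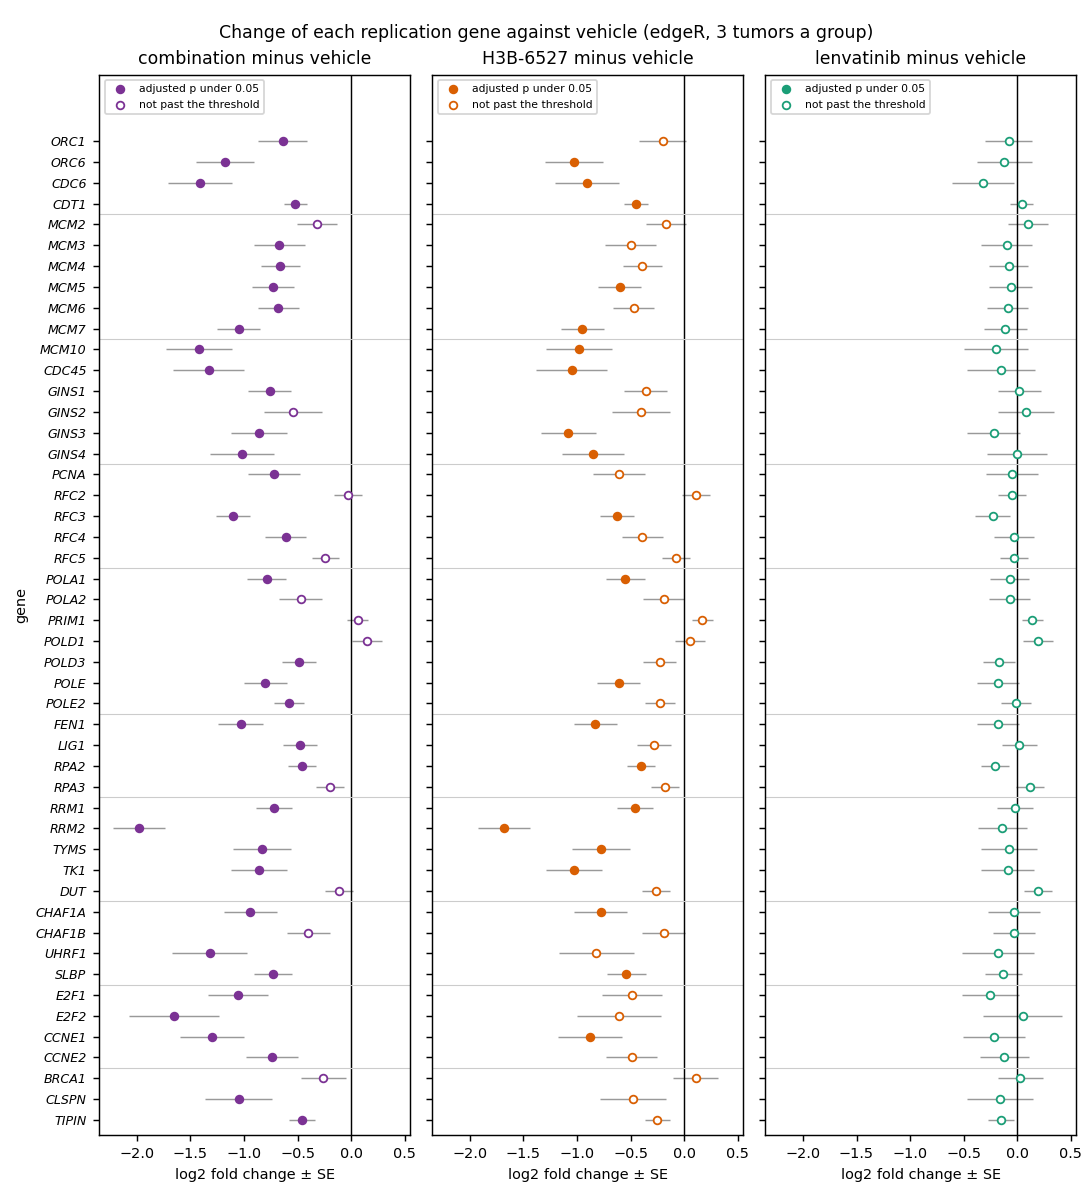
Log2 fold change ± SE of each replication gene (rows) against vehicle, for the combination, H3B-6527 and lenvatinib, with filled points for an adjusted p under 0.05 in edgeR. Filled points number 37 with the combination and 21 with H3B-6527, there is none with lenvatinib, and RRM2 is farthest to the left in the combination at -1.98.

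With lenvatinib as the comparator in place of vehicle, the combination lowered 30 of 48 genes and raised none, where 20.9% of all genes were lower, and the median was -0.62. RRM2 again changed most, at -1.84 ± 0.24 (adjusted p = 0.000192), followed by E2F2 at -1.69 ± 0.42 (adjusted p = 0.00677). H3B-6527 lowered 12 of 48 relative to lenvatinib, where 20.6% of all genes were lower, with a median of -0.41. The groups did not overlap, with the treated tumors lower, for 41 genes with the combination, where this held for 29.7% of all genes, and for 16 with H3B-6527, where it held for 24.7%. These counts also rested on single tumors: relative to lenvatinib the combination count was 12 without combination replicate 1 (14.8% of all genes), 13 without combination replicate 2 (14.5%), 19 without lenvatinib replicate 1 (17.2%) and 17 without lenvatinib replicate 2 (15.1%). The H3B-6527 count was 37 without H3B-6527 replicate 3, where 23.2% of all genes were lower and the median of the 48 was -0.63. It was 4 without H3B-6527 replicate 1, where 16.6% of all genes were lower and the median was -0.20, and 6 without H3B-6527 replicate 2 (18.3% of all genes). It was 4 without lenvatinib replicate 1 (17%) and 6 without lenvatinib replicate 2 (15%). In these last 4 fits the share of the 48 genes was below that of all genes. CDT1, MCM7 and RRM2 were the genes called in all 13 alternatives of the H3B-6527 comparison. The comparisons against lenvatinib and against vehicle share their treated tumors and are not independent.

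No effect of adding lenvatinib to H3B-6527 on the 48 genes could be separated from the spread between tumors. Of the 48, 44 had a negative log2 fold change in the combination relative to H3B-6527, where 52.6% of all genes had one. The median of the 48 was -0.21 beside -0.01 over all genes. By edgeR 0 of 48 passed, where 0.0126% of all genes were called. An unadjusted p under 0.05 was found for 3 of 48, RFC3, POLE2 and E2F2, where 9.42% of all genes had one, so these 3 do not stand out from all genes. DESeq2 and voom called 0 as well. All combination tumors lay below all H3B-6527 tumors in 2 genes, RFC3 and E2F2, where this held for 7.15% of all genes. RFC3 had -0.47 ± 0.16 (adjusted p = 0.42), POLE2 -0.36 ± 0.14 (adjusted p = 0.456) and E2F2 -1.03 ± 0.44 (adjusted p = 0.483). The intervals remained wide: the bounds ran from -1.98 to 0.80 over the 48 genes, and 40 of 48 excluded a fall of 1. These bounds use the spread of all 4 groups pooled. They may be too narrow here, since the H3B-6527 and combination tumors differed most among themselves in these genes. The median became 0.03 without H3B-6527 replicate 3 and -0.42 without H3B-6527 replicate 1, so its direction rested on 1 tumor. A gene called with the combination and not with H3B-6527 is therefore not shown to differ between these groups. A contrast of the combination plus vehicle minus both single agents, which asks whether the effects add up on the log2 scale, gave 0 of 48 calls beside 0% of all genes. At an unadjusted p under 0.05 it gave 0 of 48 beside 5.39% of all genes, and the smallest adjusted p of the 48 was 0.917. Its median was -0.15 for the 48 genes and -0.02 for all, and that of the 48 turned to 0.09 without H3B-6527 replicate 3.

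Tumors of the same group differed more in these genes when they had received H3B-6527. Taken as the geometric mean of each gene's level relative to its vehicle mean, the 48 genes stood at 0.506, 0.554 and 0.715 in combination tumors, 0.472, 0.683 and 0.935 in H3B-6527 tumors, 0.998, 0.968 and 0.882 in lenvatinib tumors and 1.02, 0.947 and 1.03 in vehicle tumors. The combination tumors were separate from lenvatinib and vehicle tumors, while the H3B-6527 tumors spread from below the lowest combination tumor to just under the lowest vehicle tumor, overlapping the lenvatinib tumors. The mean was 0.592 ± 0.109 with the combination, 0.697 ± 0.232 with H3B-6527, 0.949 ± 0.0602 with lenvatinib and 0.999 ± 0.0453 with vehicle (SD, n = 3 each). The median coefficient of variation of the 48 genes was 19.7% in the combination group, 31.4% in the H3B-6527 group, 8% in the lenvatinib group and 6.39% in the vehicle group, and over all genes tested it was 9.85% in the combination group, 16% in the H3B-6527 group, 9.67% in the lenvatinib group and 8.17% in the vehicle group. In 46 of 48 genes replicate 3 was the highest tumor of the combination group, where it was for 36.6% of all genes, and in 46 of 48 replicate 3 was the highest of the H3B-6527 group, where it was for 35.1%. Replicate numbers follow the order of deposit and link no tumors between groups. In H3B-6527 replicate 3, 24 of the 48 genes were below all vehicle tumors, where 39.7% of all genes were, and in H3B-6527 replicate 1 47 were, where 43.4% of all genes were.

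Within each group given H3B-6527, MKI67, DUSP6 and MYC ranked the tumors as the replication genes did. The order of the group means was not the same for all of them, and CYP7A1 ranked the tumors differently. MKI67, a proliferation marker outside the 48 genes, had 230, 249 and 354 CPM in combination tumors, 226, 283 and 529 CPM in H3B-6527 tumors, 591, 510 and 503 CPM in lenvatinib tumors and 506, 587 and 557 CPM in vehicle tumors, in the same order of tumors as the replication genes within the combination and H3B-6527 groups. DUSP6, a phosphatase induced by FGF and MAP kinase signaling, had 6.04, 9.71 and 15.8 CPM with the combination, 2.70, 5.07 and 7.62 CPM with H3B-6527, 62.0, 97.9 and 92.9 CPM with lenvatinib and 77.7, 92.9 and 71.1 CPM with vehicle. DUSP6 was thus also highest in replicate 3 of both groups, but remained far below every vehicle tumor in H3B-6527 replicate 3, whose replication genes were near the vehicle level. MYC, a growth regulator, had 11.7, 14.3 and 15.3 CPM with the combination, 5.27, 7.13 and 8.38 CPM with H3B-6527, 36.5, 53.2 and 46.5 CPM with lenvatinib and 48.3, 46.2 and 47.1 CPM with vehicle, again without overlap between tumors with and without H3B-6527. For both genes the mean of the H3B-6527 tumors was lower than that of the combination tumors, the opposite order of group means to that of the replication genes. CYP7A1, which makes bile acids from cholesterol and is repressed by FGFR4 signaling in liver, had 9.68, 9.88 and 4.29 CPM with the combination and 15.4, 12.7 and 4.65 CPM with H3B-6527, against 0.110, 0.0962 and 0.0513 CPM with lenvatinib and 0.0558, 0.127 and 0.0788 CPM with vehicle. Replicate 3 was thus the lowest of both groups for CYP7A1, and still far above the tumors without H3B-6527. The part of any of these in the spread of the replication genes was not tested.

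**Figure D4:**
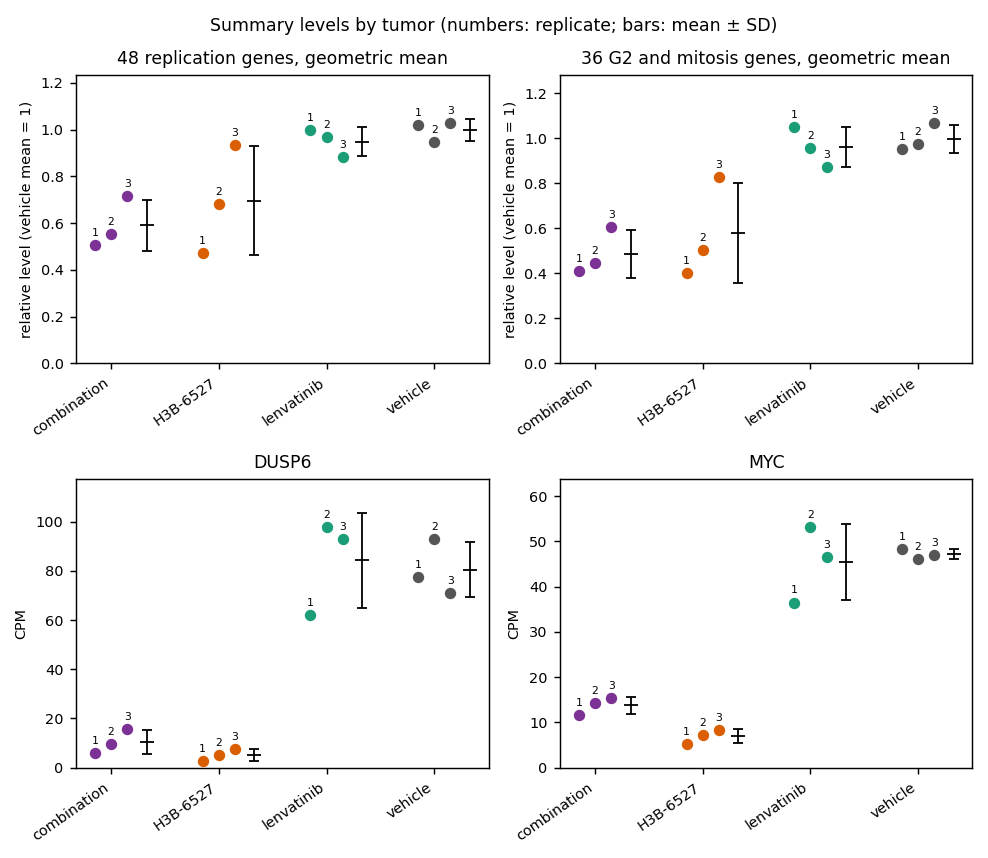
Geometric mean of the 48 replication genes and of 36 G2 and mitosis genes relative to the vehicle mean, and CPM of DUSP6 and MYC, by tumor, with points numbered by replicate and bars for mean ± SD of 3 tumors (all y axes from 0). H3B-6527 replicate 3 lies near the lenvatinib and vehicle tumors for the replication genes, at 0.935, but with all other tumors given H3B-6527 for DUSP6 and MYC.

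Some partner genes of the same complex or family changed by different amounts. Ratios of 8 pairs, chosen after their values were seen, are a description with no test, and 4 are given by tumor. The ratio of MCM7 to MCM2 was 0.939, 0.969 and 0.954 in combination tumors, 0.884, 0.917 and 0.955 in H3B-6527 tumors, 1.38, 1.32 and 1.40 in lenvatinib tumors and 1.58, 1.64 and 1.52 in vehicle tumors. Its coefficient of variation was 1.54% with the combination and 3.84% with H3B-6527, so the tumors that differed widely in both levels had nearly the same ratio, and the lenvatinib tumors also lay below the vehicle tumors. The ratio of RRM2 to RRM1 was 0.122, 0.0932 and 0.102 with the combination, 0.104, 0.0886 and 0.127 with H3B-6527, 0.222, 0.255 and 0.217 with lenvatinib and 0.257, 0.243 and 0.255 with vehicle. The tumors with H3B-6527 lay below all others, H3B-6527 replicate 3 included, but with coefficients of variation of 14.1% in the combination and 18.2% with H3B-6527, against 8.91% with lenvatinib and 3.09% with vehicle. POLD1 over POLE, the catalytic subunits of the lagging and leading strand polymerases, ran the other way, with 0.349, 0.339 and 0.292 in the combination, 0.308, 0.279 and 0.236 with H3B-6527, 0.224, 0.243 and 0.186 with lenvatinib and 0.178, 0.157 and 0.170 with vehicle. The combination tumors were above all lenvatinib and vehicle tumors, and the lenvatinib tumors lay above the vehicle tumors and met the lowest H3B-6527 tumor. The ratio of RFC2 to RFC3, subunits of the clamp loader, was 2.35, 2.52 and 2.39 in the combination, 1.82, 2.26 and 1.76 with H3B-6527, 1.23, 1.13 and 1.62 with lenvatinib and 1.08, 1.33 and 1.07 with vehicle. Of the other pairs, PRIM1/POLA1 was higher and CCNE1/CCNE2 lower in all 6 tumors with H3B-6527, while GINS3/GINS2 and E2F2/E2F1 overlapped between tumors with and without it. Values of genes with different transcript lengths are compared here between tumors only, since a ratio of CPM does not give the ratio of molecules.

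Each gene was also set against the geometric mean of the 48 in the same tumor, which removes what the tumor's genes share. On that relative level 7 of the 48 genes were lower in all 6 tumors with H3B-6527 than in all 6 without it, which were ORC6, MCM7, CDC45, GINS4, FEN1, RRM2 and CHAF1A. In the other direction, 12 of the 48 were higher in all 6, which were MCM2, MCM4, RFC2, RFC5, POLA2, PRIM1, POLD1, POLD3, LIG1, CHAF1B, BRCA1 and TIPIN. Over all genes the shares were 2.87% lower and 29.6% higher, but dividing by genes that fell in these tumors sets those shares, so they are no background for the counts of the 48. The divisor is the mean of these same 48 genes, so unequal falls must put some of them below it and others above. Both counts are therefore a description and no test. The relative level shows unequal change among the 48 genes and not that any of them stayed constant.

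**Figure D5:**
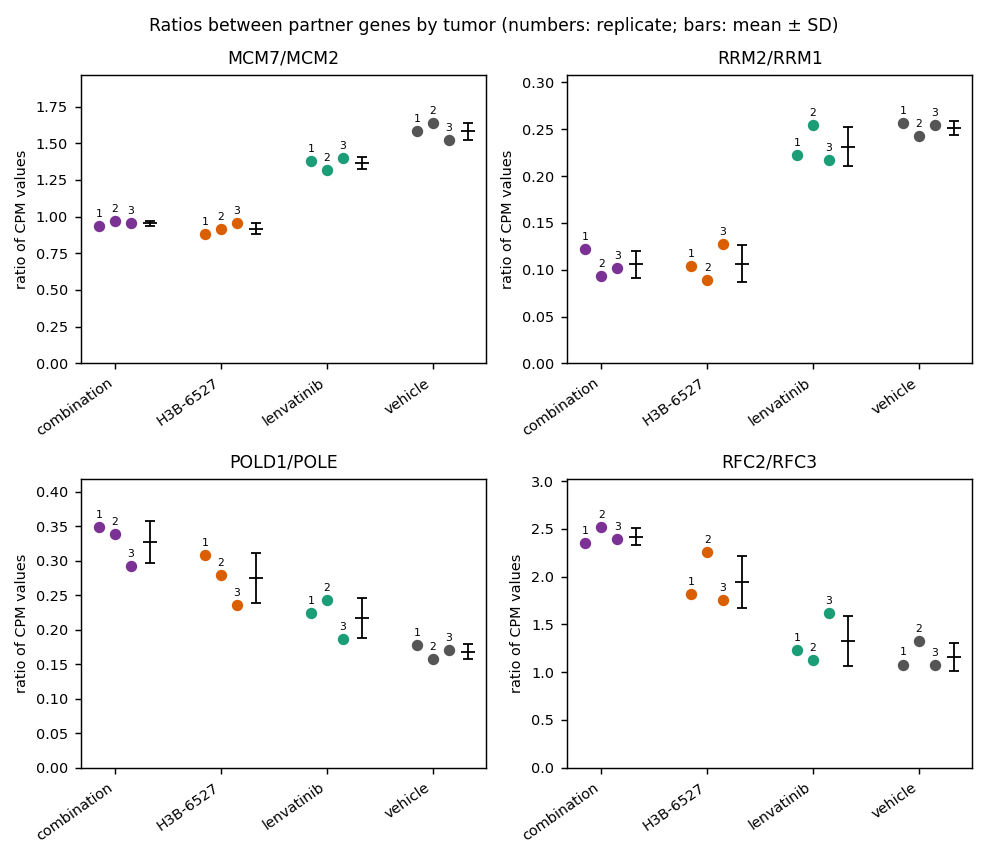
Ratios of CPM between partner genes (MCM7/MCM2, RRM2/RRM1, POLD1/POLE and RFC2/RFC3, y axes from 0) by tumor, with points numbered by replicate and bars for mean ± SD of 3 tumors. The 6 tumors with H3B-6527 lie below the 6 without it for MCM7/MCM2 and RRM2/RRM1 and above them for RFC2/RFC3, while the H3B-6527 and lenvatinib tumors meet for POLD1/POLE.

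Other genes of the pathway moved mostly down. Their lists were drawn up by function, but with earlier results of these data known, so the counts are a description and no independent check. The combination lowered 11 of 17 further licensing and firing factors, 9 of 16 further replisome subunits, 18 of 26 further nucleotide synthesis genes and 9 of 12 further chromatin assembly genes, where 25.3% of all genes were lower. H3B-6527 lowered 8 of the licensing and firing factors, 9 of the replisome subunits, 18 of the nucleotide synthesis genes and 4 of the chromatin assembly genes, the last of which, 33.3%, is near the 24.3% of all genes lowered by H3B-6527. Of 25 other E2F, RB and cyclin genes 14 were lower with the combination and 12 with H3B-6527. The combination lowered 21 of 26 checkpoint and recombination genes and 35 of 36 G2 and mitosis genes, and H3B-6527 lowered 15 and 29 of them. In all, the combination lowered 117 and raised 7 of the 158 genes of these 7 lists, and H3B-6527 lowered 95 and raised 11, of which 4 were E2F, RB and cyclin genes, 3 checkpoint genes, 2 licensing factors and 2 nucleotide genes. Of all genes 24.8% were higher with the combination and 25.2% with H3B-6527. With lenvatinib the smallest adjusted p among the 158 genes was 0.245, and 9 of them had an unadjusted p under 0.05, where 10.7% of all genes had one. The median of the G2 and mitosis list was -1.06 with the combination and -0.82 with H3B-6527, a larger fall than in the 48 replication genes, though the lists were not tested against each other. Among these genes BUB1B, a kinase of the spindle checkpoint, had -1.43 ± 0.17 (adjusted p = 3.88e-05) with the combination and -1.03 ± 0.17 (adjusted p = 0.000398) with H3B-6527. DBF4, the activator of the CDC7 kinase that fires origins, had -0.95 ± 0.14 (adjusted p = 0.000135) with the combination and -0.70 ± 0.14 (adjusted p = 0.00125) with H3B-6527. DSCC1, part of an alternative clamp loader, had -1.46 ± 0.27 (adjusted p = 0.000689) with the combination and -1.22 ± 0.27 (adjusted p = 0.00236) with H3B-6527. PPAT, which commits the purine pathway, fell by 1.32 ± 0.13 with the combination (adjusted p = 5.97e-06) and by 1.11 ± 0.13 with H3B-6527 (adjusted p = 1.77e-05). E2F5, an E2F of the repressor branch, had -1.38 ± 0.13 (adjusted p = 5.31e-06) with the combination and -1.30 ± 0.13 (adjusted p = 7.14e-06) with H3B-6527. CCND1, cyclin D1, a driver of G1 progression, fell by 1.66 ± 0.21 with the combination (adjusted p = 6.81e-05) and by 2.07 ± 0.22 with H3B-6527 (adjusted p = 1.61e-05). ATR, the kinase that answers replication stress, had -0.59 ± 0.07 (adjusted p = 2.87e-05) with the combination and -0.47 ± 0.07 (adjusted p = 0.000171) with H3B-6527.

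A few of the related genes rose. MCM9, an MCM relative with a role in repair rather than origin licensing, had 27.3, 29.4 and 24 CPM in combination tumors, 30, 29.1 and 27.7 CPM in H3B-6527 tumors, 17.9, 19.5 and 17.8 CPM in lenvatinib tumors and 18.7, 18.1 and 17.3 CPM in vehicle tumors. All 6 tumors with H3B-6527 were above all 6 without it, with 0.58 ± 0.09 (adjusted p = 2e-04) in the combination and 0.68 ± 0.09 (adjusted p = 5.55e-05) with H3B-6527. Chosen after their values were seen, SAMHD1, which breaks down dNTPs, had 0.68 ± 0.13 (adjusted p = 7e-04) with the combination and 1.02 ± 0.13 (adjusted p = 3.59e-05) with H3B-6527. RRM2B, the ribonucleotide reductase subunit used outside S phase, had 0.36 ± 0.11 (adjusted p = 0.0181) with the combination and 0.42 ± 0.11 (adjusted p = 0.00878) with H3B-6527. RRM2B thus moved opposite to RRM2. The CDK inhibitors CDKN1B and CDKN1C, chosen in the same way, had 0.39 ± 0.10 (adjusted p = 0.00629) and 0.72 ± 0.15 (adjusted p = 0.00165) with the combination, and 0.37 ± 0.10 (adjusted p = 0.00776) and 0.70 ± 0.15 (adjusted p = 0.00209) with H3B-6527. Other CDK inhibitors in the same list did not pass: CDKN1A had -0.36 ± 0.34 (adjusted p = 0.403) with the combination and -0.52 ± 0.35 (adjusted p = 0.229) with H3B-6527, and CDKN2C 0.15 ± 0.17 (adjusted p = 0.488) with the combination and 0.23 ± 0.17 (adjusted p = 0.267) with H3B-6527.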

How the data were processed

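RNA-seq of 12 tumors was analysed from 1 table of expected counts per human gene symbol, the estimated counts that kallisto assigns, deposited by the authors without scaling; 40% of all values and 88% of those of the 48 genes were not whole. STAR, kallisto, GRCh37 and GRCm38 are named in the submitters' processing notes, without versions or roles, and removal of mouse reads and use of strand are not given in the sources used here. All samples are labelled as mouse while the symbols are human. With no human annotation used, no coordinates, gene lengths or sequences are reported. Counts were rounded and tested in R 4.3.3 with edgeR 4.0.16 (filterByExpr on the 4 groups, TMM factors, robust quasi-likelihood F-test, 2-sided), all 12 libraries in 1 fit, so that each comparison uses the spread of all groups. Benjamini-Hochberg adjustment ran over the 15836 genes tested, with a threshold of 0.05. Of all genes 9157 had no count in any library.

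The 48 genes and the other lists were chosen with earlier results of these data known. Values by tumor are given for the 2 genes of each of 10 roles with the smallest p in an F-test over the 3 treated-minus-vehicle coefficients (31 of 48 genes called, 50.9% of all genes), for MCM2, MCM10, CDC6, CDT1, PCNA, RRM2, E2F1, E2F2, CCNE1, CCNE2 and BRCA1, and, chosen later, POLD1. Of the 7 other lists, the 2 genes with the smallest p could be named. No 2 replicates agreed within sampling noise. Over all genes the chi-square per degree of freedom was 7.86 to 24.6 for pairs within the vehicle and lenvatinib groups. It was 87.7 and 152 for the pairs with H3B-6527 replicate 1. The voom fit with library weights gave that tumor 0.215, the lowest weight of the 12 libraries. Alternatives were RLE factors, library totals alone, no filter on low counts, voom in limma 3.58.1, DESeq2 1.42.0, a fit of the groups compared only, each tumor left out, and, added after seeing the data, voom with library weights. The edgeR fit was tested on simulated data first. The labels give 3 mice and 3 libraries a group, which is read here as 1 library per mouse, and no batch.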

Additional observations from a re-analysis of the deposited data

How the results depend on the processing

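No paired analysis was possible because the labels give no replicate numbers or shared animals between groups. All 7 medians over the 48 genes kept their direction under every alternative that used all tumors, but without H3B-6527 replicate 3 that of the combination against H3B-6527 turned to 0.03 and that of non-additivity to 0.09, and no gene's call turned round. Counts of lowered genes depended on the model. For H3B-6527 against vehicle, 21 became 10 with no filter on low counts (13.2% of all genes lower), 11 with the compared groups fitted alone (20.1%) and 34 (33 lower and PRIM1 higher, 27.1%) with voom and library weights, an alternative added after seeing the data. For the combination against lenvatinib, 30 became 15 with no filter (11% of all genes). For H3B-6527 against lenvatinib, 12 became 6 with no filter (11.1% of all genes), 4 with the compared groups alone (14.2%, so that the 48 genes fell below the share of all), 20 with voom (21.9%) and 25 with library weights (21.7%). Leaving out 1 tumor at a time gave ranges of counts, here with the share of all genes lowered in the same fit. They were 9 (19.3%) to 38 (26.2%) for H3B-6527 against vehicle and 24 (20.6%) to 39 (23.4%) for the combination against vehicle. Against lenvatinib they were 12 (14.8%) to 38 (18.5%) for the combination and 4 (16.6% or 17%) to 37 (23.2%) for H3B-6527. The count was 0 throughout for lenvatinib against vehicle, the combination against H3B-6527 and non-additivity. Why these counts moved was not tested. Scaling by library totals alone put the median of all genes at -0.14 for the combination and -0.11 for H3B-6527, and the counts of lowered genes at 41 (33.7% of all genes) and 26 (31.3%). With 3 tumors a group the median 95% interval of a gene reached 0.44 to either side on the log2 scale, and 0.62 for non-additivity. Smaller effects of adding lenvatinib could not be seen. The 0.44 was the same in every comparison of 2 groups, since 1 fit pooled the spread of all 4 groups. The intervals thus do not follow the spread of the groups compared. That spread, as the median coefficient of variation of the 48 genes, was 31.4% with H3B-6527, 19.7% with the combination, 8% with lenvatinib and 6.39% with vehicle. These intervals are not adjusted for the number of genes tested, so larger effects could also fail the test. For RFC3 in the combination relative to H3B-6527 the interval of -0.82 to -0.12 excluded 0, but the adjusted p in edgeR was 0.42.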
